A study of Mus musculus with 6 samples.

Results

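The genes described here are 52 enzymes and scaffold proteins of chromatin, taken by name from the 19179 genes that the deposited tables list, and all 52 were found. They comprise subunits of the BAF and PBAF remodelers, CHD helicases with their MTA partners, histone deacetylases, Polycomb proteins, histone methyltransferases and demethylases, DNA methylation enzymes, coactivators, a corepressor and Tnrc18. The cells were 4T1, a metastatic mammary tumour line of BALB/c mice. Wells were seeded at 1 cell each, and after 14 days of culture 10 clones of each of 2 kinds were picked at random, in 3 independent experiments. Messenger RNA sequencing gave 3 libraries for the kind named breast cancer stem cell (stem-labelled below) and 3 for the kind named breast cancer cell (other clones), with no treatment or genetic change in either group. What decided a clone's kind is not in the labels, nor how many clones made up a library.

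Chromatin remodelers use ATP to slide or evict nucleosomes, and BAF, PBAF and the CHD helicases differ in the proteins that bring them to DNA. Polycomb complexes keep genes silent: PRC2 methylates histone H3 at lysine 27 and PRC1 ubiquitinates histone H2A. The KMT2 enzymes methylate lysine 4 of histone H3 at promoters and enhancers, whereas Ehmt1, Ehmt2 and Setdb1 methylate lysine 9, a mark of silent chromatin. Dnmt1 copies DNA methylation after replication and the TET enzymes oxidise it. Several of these genes, Arid1a and the KMT2 genes among them, are often mutated in human carcinomas.

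The promoters of 3 genes are shown first because Tnrc18 had the largest change of the 46 tested genes, and Ehmt1 against its partner Ehmt2 the largest change in ratio of the paralogue pairs compared. They come from RefSeq on GRCm38.p6, each covering 250 bases before and 50 after the gene's start, 5′ to 3′ on the gene's strand. Capitals mark GC boxes, searched as GGGCGG on both strands. The windows are chr5:142817613-142817912 (minus strand), chr2:24919560-24919859 (minus strand) and chr17:34898224-34898523 (plus strand).
Tnrc18: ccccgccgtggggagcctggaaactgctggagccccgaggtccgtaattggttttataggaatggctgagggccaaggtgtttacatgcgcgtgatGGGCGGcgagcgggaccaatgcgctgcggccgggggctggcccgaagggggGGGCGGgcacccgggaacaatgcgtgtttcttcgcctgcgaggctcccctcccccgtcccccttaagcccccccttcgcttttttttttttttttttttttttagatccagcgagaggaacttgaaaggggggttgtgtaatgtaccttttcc
Ehmt1: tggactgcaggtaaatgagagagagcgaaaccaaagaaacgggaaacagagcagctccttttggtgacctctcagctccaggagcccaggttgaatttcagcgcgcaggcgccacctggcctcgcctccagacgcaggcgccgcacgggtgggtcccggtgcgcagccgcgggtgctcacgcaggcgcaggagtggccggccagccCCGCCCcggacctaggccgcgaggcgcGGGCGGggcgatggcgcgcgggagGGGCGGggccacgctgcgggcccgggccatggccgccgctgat
Ehmt2: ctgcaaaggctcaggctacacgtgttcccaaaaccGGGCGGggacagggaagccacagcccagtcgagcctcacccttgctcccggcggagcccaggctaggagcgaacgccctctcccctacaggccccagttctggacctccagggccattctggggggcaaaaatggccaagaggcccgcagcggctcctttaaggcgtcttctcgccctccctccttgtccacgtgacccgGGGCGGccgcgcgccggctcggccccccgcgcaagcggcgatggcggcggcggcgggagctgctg
The windows held 2, 3 and 2 GC boxes and 21, 34 and 28 CpG dinucleotides in Tnrc18, Ehmt1 and Ehmt2. Of the 52 genes, 43 had a window in the RefSeq table, and 37 of these (86.0%) held a GC box, against 35.7% of all 32851 windows, many of them of noncoding genes. The median number of CpG was 30 in these 43 windows and 7 in all. The 43 are 1 window per gene, the nearest to its listed start, and the full set was not chosen so. Neither gap is therefore shown to be particular to these genes. GC boxes were in the windows of 19 of 21 genes that rose and of 3 of 5 that fell. For Smarcd2, Tet1, Smarcc1, Tet3 and Cbx7 the nearest window lay 5340 to 38473 bases from the listed gene start, so it may not be the promoter used. Smarcd2 is among those that fell, and Smarcc1 and Tet3 are among those that rose. The CCAAT box was in 27.9% and 37.4%, the letters TATAAA in 4.65% and 13.6%, and the E-box CACGTG in 9.30% and 7.15% of these and of all windows. The ETS core CCGGAAG was in 6 of the 43 (14.0%), all 6 among genes that rose, and in 8.86% of all windows. Smarcc1 is 1 of the 6, with its window 14316 bases from the listed start. Searches used both strands, a stretch could count for more than 1 motif, and a match describes letters only.

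Levels are RPKM: reads divided by listed gene length and by the library total that the authors used. The listed length spans all annotated exons, so it can understate the level of a gene that uses few of them. Each stem-labelled library held 21196572 to 22838870 reads in genes, and each of the other libraries 15357608 to 16830762. These were 0.658 to 0.757 and 1.23 to 1.53 of the authors' library totals, so the scaling differs between the groups, and each change was also computed after rescaling every library by its reads in genes. The 8 epithelial and 4T1 markers summed to 1350 to 2118 RPKM in stem-labelled and 2475 to 3950 RPKM in other libraries, and they differed among themselves. Epcam stood at 50.2 to 59.8 RPKM in all 6, Cdh1 was called higher in the stem-labelled clones (68.9 ± 9.002 against 16.0 ± 1.98 RPKM), and 3 keratins were called lower: Krt18 (420 ± 106 against 1480 ± 478 RPKM), Krt7 (36.7 ± 24.7 against 213 ± 30.8 RPKM) and Krt14 (0.162 ± 0.201 against 26.2 ± 28.9 RPKM). These calls held on rescaling, and Krt8 (-0.90, limma adjusted p = 0.0565) and Spp1 were not called on the deposited scale. Epcam (0.90) and Spp1 (1.31) were called higher on rescaling. After the correction for length and GC content described below, Cdh1, Krt7 and Krt14 kept their calls and Krt18 did not (-0.70, limma adjusted p = 0.0677). There Krt8 stood at 0.03, and Spp1 was called higher (1.16, adjusted p = 0.0199). Defining markers of other cells were near 0: Ptprc of leukocytes reached 0.00916 RPKM, Col1a2 of fibroblasts 0.00565 RPKM and Pecam1 of endothelium 0.0635 RPKM at most. Summed over the lists, 3 endothelial markers gave 0.0234 to 0.0742 RPKM in stem-labelled and 0.0129 to 0.0895 RPKM in other libraries, 4 fibroblast markers 1.68 to 3.39 and 0.396 to 1.01 RPKM, and 5 leukocyte markers 12.6 to 40.2 and 6.09 to 29.5 RPKM. Nearly all of the last came from Cd68, a lysosomal protein, at 6.08 to 39.9 RPKM, and most of the fibroblast sum from Pdgfra, at 0.396 to 3.34 RPKM. Their part in the results was not tested.

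Most of the chromatin genes stood higher in the stem-labelled clones, led by Tnrc18, Arid1a, Arid1b, Chd4, Smarcc2, Kmt2a and Kmt2d. Histone deacetylases and Polycomb genes mostly did not pass the test on the deposited scale. On rescaling 3 of 5 histone deacetylase, 2 of 4 PRC2 and 2 of 5 PRC1 genes were called higher, where 58.7% of all tested genes were. A gene was tested where it reached 1 RPKM in at least 3 of the 6 libraries, which 46 of the 52 did. Changes are differences of log2(RPKM + 1), stem-labelled minus other, ± SE, and a gene is said to have risen or fallen where the limma p adjusted over 10097 genes was under 0.05. Of the 46, 26 rose (56.5%), 5 fell (10.9%) and 15 did not pass, while 29.9% of all tested genes were called higher and 25.4% lower. The filter can admit a gene through 1 group alone, among the members as among all genes. With no filter 28 of the 52 were called higher and 4 lower, against 16% and 12.1% of all 19179 genes. The median change was 0.82 over the 46 and 0.11 over all tested genes. All 3 stem-labelled libraries lay above all 3 others for 29 of the 46 and below them for 6, against 35.7% and 27.8% of tested genes. As in any bulk sample, fewer cells that express a gene cannot be told apart from less RNA per cell.

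**Figure D1:**
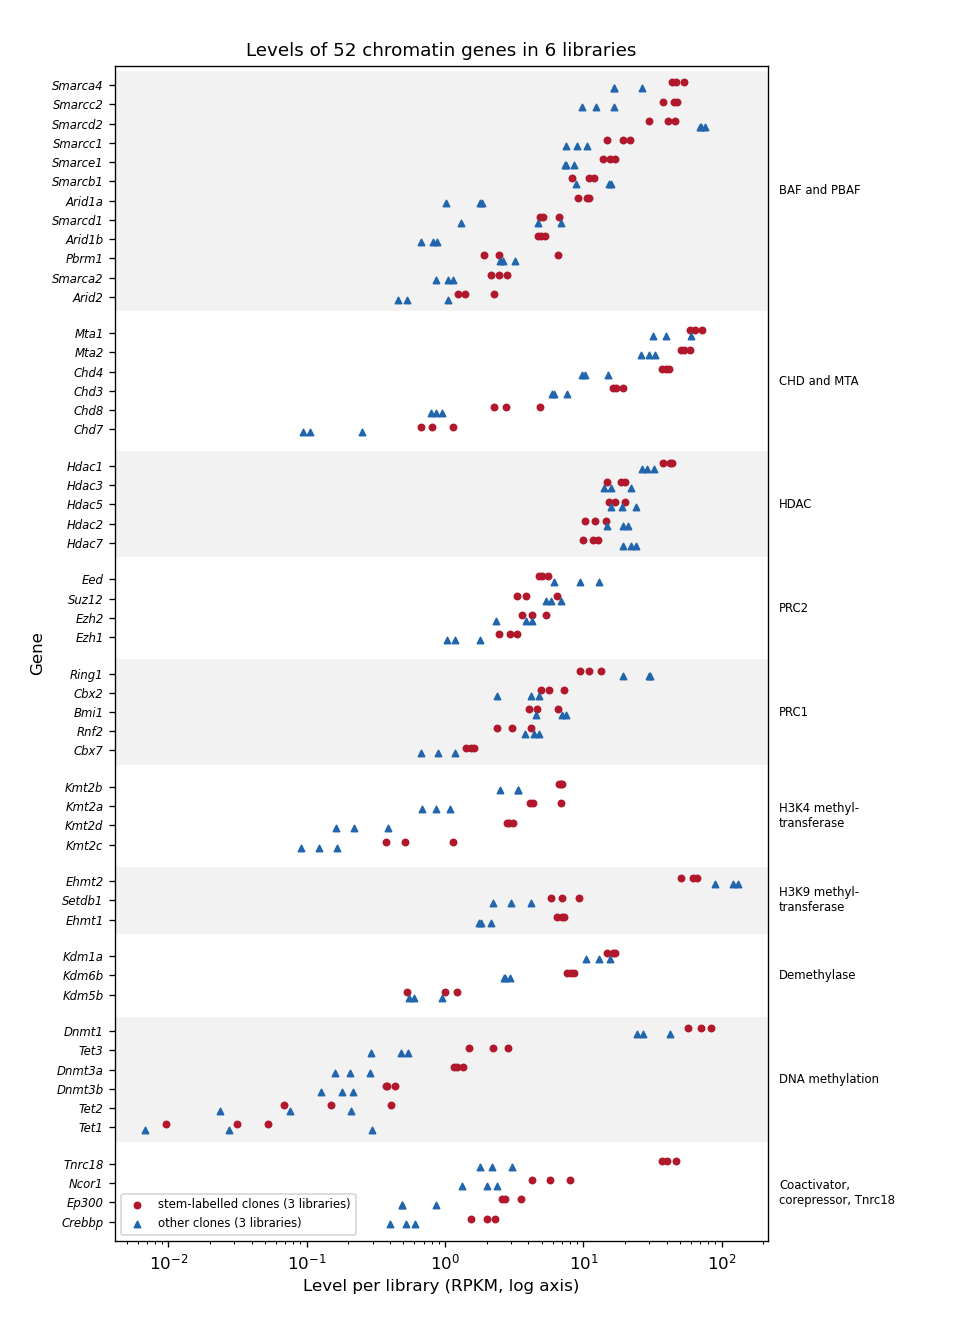
Level of each of the 52 genes in each library (RPKM, log axis), by class and in order of level, with red circles for the 3 stem-labelled and blue triangles for the 3 other libraries. Tnrc18 shows the widest gap, 37.0 to 46.9 against 1.79 to 3.02 RPKM, and Ehmt2, Smarcd2, Hdac7 and Ring1 lie lower in the stem-labelled libraries, with Smarcd2, Hdac7 and Ehmt2 turning just above 0 on rescaling.

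Gene length moved with these changes. The 46 genes had a median listed length of 6904 bases, against 3634 bases over all tested genes. Of 13 chromatin genes of at least 10 kb, 13 rose, where 63.3% of the 542 tested genes of that length were called higher and 3.51% lower. The count is bound up with the filter. Arid1b, Chd8, Dnmt3a, Tet3, Kmt2d, Crebbp and Ep300 reached 1 RPKM only in stem-labelled libraries, so they could hardly have been called lower. Chd7, Kmt2c, Kdm5b, Tet1 and Tet2, of that length too, were not tested. With no filter only Chd7 among these untested genes was called. Between 5 and 10 kb, 12 of 20 rose and 2 fell (48.0% and 9.24% of 2695 genes). Under 5 kb, 1 of 13 rose and 3 fell (20.1% and 33.5% of 6860 genes). Across the 46 genes the change followed length with Spearman's rho = 0.62, and across all tested genes with 0.49. Genes are not replicates, and they share the same 6 libraries.

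**Figure D2:**
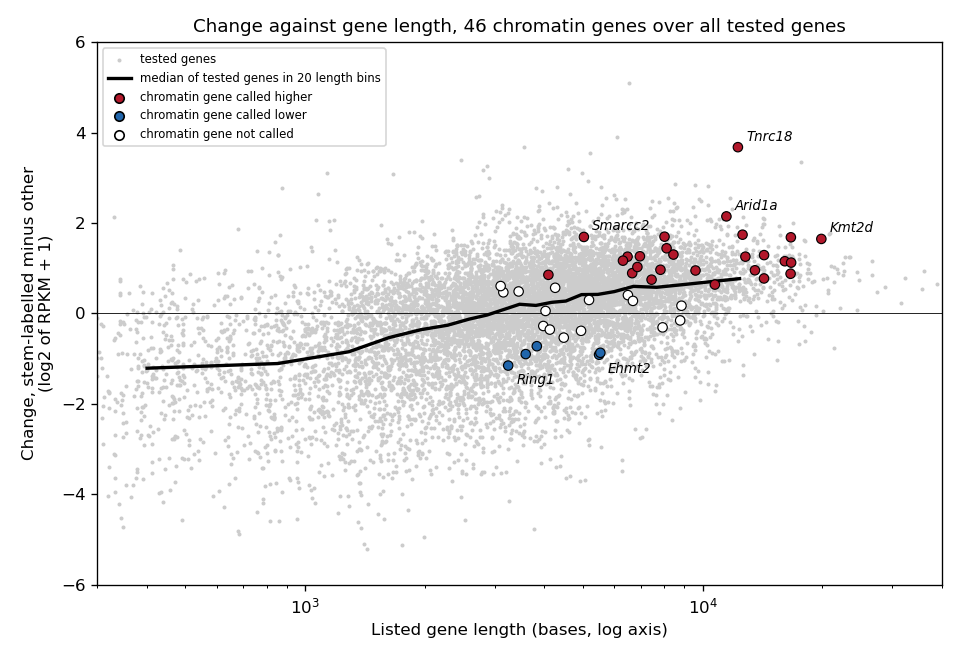
Change (log2 of RPKM + 1, stem-labelled minus other) against listed gene length (log axis) for 46 chromatin genes (large points) over all 10097 tested genes (grey), with the median of tested genes in 20 length bins as a line. The line climbs with length, and Tnrc18 (3.68) and Arid1a (2.15) have the largest changes among the chromatin genes.

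After each library was corrected for length and GC content, 17 of the 46 were called higher and 7 lower, where 25.8% and 22% of all tested genes were, and the median change was 0.14. Of the 26 genes that rose, 15 were called higher after the correction too, and 5 had a change below 0 there. All 5 genes that fell were called lower after it too. Rescaling to the reads summed over genes, under which the median over all genes became 0.86, gave 36 higher and 0 lower (limma; 0 lower at an unadjusted p under 0.05), where 58.7% and 12.3% of all genes were called. On that scale the median of the 46 was 1.41. The 26 that rose were called higher there too. So were Pbrm1, Smarcd1, Mta1, Hdac1, Hdac3, Hdac5, Cbx2, Cbx7, Ezh2 and Kdm1a, none of which had passed before rescaling. Of the 5 that fell, 4 had changes of 0.014 to 0.10 and Ring1 -0.27 on that scale. So a fall below is a fall on the deposited scale, and relative to the median gene after rescaling.

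Tnrc18 encodes a large protein with a BAH domain, a fold that binds modified histone tails. It lies on chromosome 5, from 142724661 to 142817662 (ENSMUSG00000039477, GRCm38). It stood at 46.9, 37.0 and 40.2 RPKM in stem-labelled replicates 1 to 3 and at 2.17, 1.79 and 3.02 RPKM in other replicates 1 to 3. Every stem-labelled value was more than 10 times the highest other value. The change was 3.68 ± 0.22 (limma adjusted p = 9.21e-05), 3.56 after the correction and 4.46 on rescaling. It rested on 46024 reads against 963, so counting does not limit it.

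The coactivators and the corepressor among the members rose as well, from low levels. Ep300 and Crebbp, the closely related histone acetyltransferases p300 and CBP, rose from 0.612 ± 0.214 to 2.95 ± 0.520 RPKM and from 0.507 ± 0.103 to 1.93 ± 0.378 RPKM (means ± SD, n = 3). The changes were 1.29 ± 0.19 and 0.96 ± 0.18. Ncor1, a corepressor that carries Hdac3, rose by 1.26 ± 0.25, from 1.90 ± 0.537 to 6.01 ± 1.89 RPKM. All 3 genes are over 12 kb long, and after the correction their changes were 0.20, -0.10 and 0.22, none of which passed.

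Of 12 BAF and PBAF genes, 8 rose, 1 fell and 3 did not pass. Over all tested genes 29.9% were called higher and 25.4% lower. After the correction 5 of the 12 were called higher and 2 lower, against 25.8% and 22% of all tested genes. Smarca4 encodes BRG1, one of the alternative ATPases of the complex. Its level was 53.2, 43.7 and 46.6 RPKM in the stem-labelled and 16.5, 26.5 and 16.5 RPKM in the other libraries, with no overlap. It rose by 1.26 ± 0.24 (0.97 after the correction, both called). Smarca2, which encodes the alternative ATPase BRM, was far lower, at 2.46 ± 0.327 and 1.02 ± 0.138 RPKM. It rose by 0.78 ± 0.18 and stood at -0.32 after the correction, not called.

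Arid1a and Arid1b encode the alternative DNA-binding subunits that define BAF. Arid1a (ENSMUSG00000007880, chromosome 4, 133679008 to 133756769) read 10.9, 9.08 and 10.5 RPKM in the stem-labelled and 1.84, 1.01 and 1.77 RPKM in the other libraries. The groups were far apart, with a change of 2.15 ± 0.21 (limma adjusted p = 0.000131, 1.73 after the correction). Arid1b rose by 1.74 ± 0.17, from 0.786 ± 0.103 to 4.98 ± 0.276 RPKM (0.80 after the correction, called). Arid2, the subunit that marks PBAF, rose by 0.64 ± 0.22 (limma adjusted p = 0.0314) to only 1.62 ± 0.542 RPKM. That call was lost without stem-labelled replicate 3 (0.48, adjusted p = 0.0836) without other replicates 2 and 3 (0.58 and 0.54, adjusted p = 0.0790 and 0.0952) and with no filter on low values (adjusted p = 0.0822), and the corrected change was -0.20. Pbrm1, the bromodomain subunit of PBAF, did not pass (0.17 ± 0.33): it stood at 6.55 RPKM in stem-labelled replicate 3 and at 1.90 to 3.20 RPKM in the other 5 libraries. Without that library its change was -0.25.

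Among the core subunits, Smarcc2 (BAF170) rose by 1.69 ± 0.24, from 13.0 ± 3.51 to 43.5 ± 5.30 RPKM, and kept 1.34 after the correction. Its paralogue Smarcc1 (BAF155) rose by 0.97 ± 0.23 on the deposited scale and stood at 0.10 after the correction, not called. Smarce1, a subunit with an HMG box, rose by 0.89 ± 0.19 and by 1.10 after the correction. Smarcb1, the core subunit lost in rhabdoid tumours, did not pass, at 10.4 ± 1.92 against 13.4 ± 3.95 RPKM (-0.31 ± 0.26), but was called lower after the correction (-1.21). Smarcd2 was the member of this class that fell: it read 45.9, 41.0 and 29.8 RPKM against 69.7, 75.9 and 71.2 RPKM, without overlap. The change was -0.90 ± 0.24 (-0.68 after the correction, 0.026 on rescaling). Its paralogue Smarcd1 did not pass (0.47 ± 0.39). Smarcd1 varied widely in the other clones, with 1.30 RPKM in replicate 1 and 6.88 and 4.69 RPKM in replicates 2 and 3, and without replicate 1 the change was -0.04.

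Of the 5 CHD and MTA genes tested, 4 rose and 1 did not pass, where 29.9% of all tested genes were called higher. Chd4, the helicase of the NuRD complex, stood at 39.8, 36.9 and 41.9 RPKM in the stem-labelled and 9.69, 15.2 and 10.2 RPKM in the other libraries. All stem-labelled values were more than 2 times the highest other value, and the change was 1.70 ± 0.23 (limma adjusted p = 0.000365, 0.92 after the correction, called). Chd3, the alternative NuRD helicase, rose by 1.30 ± 0.20 to 17.6 ± 1.52 RPKM (0.92 after the correction, called). Chd8 rose by 1.16 ± 0.23, but its change after the correction was 0.04. Chd7, a helicase of developmental enhancers, was below the level set for testing, with 0.674 to 1.13 RPKM against 0.0937 to 0.250 RPKM and 1101 reads against 72. Without a filter on low values, where limma called 28 of the 52 genes higher and 4 lower (16% and 12.1% of all 19179), Chd7 was called higher (0.70, adjusted p = 0.00901).

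The MTA proteins join the helicase of NuRD to its deacetylases. Mta2 rose by 0.86 ± 0.21, from 29.6 ± 3.56 to 54.2 ± 4.01 RPKM (0.52 after the correction, called). Mta1 did not pass on the deposited scale (0.61 ± 0.27, limma adjusted p = 0.0813), with 59.1 to 71.6 RPKM against 31.7, 59.8 and 39.6 RPKM. It was called higher without other replicate 2 (0.85, adjusted p = 0.0182), after the correction (0.99, adjusted p = 0.00652) and on rescaling (1.53, adjusted p = 0.000606).

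Of the 5 histone deacetylase genes, 1 fell and 4 did not pass on the deposited scale. There 29.9% of all tested genes were called higher and 25.4% lower. On rescaling Hdac1, Hdac3 and Hdac5 were called higher, where 58.7% of all tested genes were. Hdac7, a class IIa enzyme, read 11.7, 12.7 and 9.99 RPKM in the stem-labelled and 19.4, 23.9 and 22.0 RPKM in the other libraries. The groups did not overlap, and the change was -0.87 ± 0.20 (limma adjusted p = 0.00535, -0.68 after the correction, 0.014 on rescaling). Hdac5, of the same class, stood at 17.3 ± 2.33 against 19.6 ± 4.11 RPKM (-0.15 ± 0.23).

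Hdac1 and Hdac2 are the paired catalytic subunits of NuRD and other repressor complexes. Hdac1 stood at 37.5 to 43.8 against 26.6 to 32.1 RPKM and Hdac2 at 10.3 to 14.5 against 14.9 to 21.0 RPKM, each without overlap and in opposite directions. Neither passed (0.49 ± 0.21 and -0.53 ± 0.22, limma adjusted p = 0.0689 and 0.0657). Hdac2 was called lower without other replicate 2 (-0.67, adjusted p = 0.0356), after the correction (-0.50, adjusted p = 0.0329) and by limma-voom on the recovered reads (-0.71, adjusted p = 0.0281, with 28.4% of all tested genes called lower), and stood at 0.35 on rescaling. Hdac1 was called higher with no filter on low values (adjusted p = 0.0411) and on rescaling (1.40, adjusted p = 0.000268), and its corrected change was 0.081. Of the 50-base stretches of the Hdac1 transcript, 58.7% also occur in another annotated gene, so its reads may be split. Hdac3, the partner of Ncor1, stood at 17.9 ± 2.69 and 17.4 ± 4.32 RPKM (0.06 ± 0.24), while Ncor1 rose on the deposited scale. On rescaling both were called higher (0.94, limma adjusted p = 0.00703, for Hdac3 and 1.95 for Ncor1). After the correction neither was called (-0.35 and 0.22).

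Most Polycomb genes did not pass the test on the deposited scale. On rescaling Ezh1 (1.35), Ezh2 (1.01), Cbx2 (1.33) and Cbx7 (0.91) were called higher, where 58.7% of all tested genes were. Of 4 PRC2 genes, 1 rose, 1 fell and 2 did not pass, and of 5 PRC1 genes, 1 fell and 4 did not pass. On that deposited scale 29.9% of all tested genes were called higher and 25.4% lower. Ezh2, the main methyltransferase of PRC2 in dividing cells, stood at 4.38 ± 0.878 against 3.48 ± 1.01 RPKM (0.28 ± 0.23, limma adjusted p = 0.332). Ezh1, the alternative enzyme, rose by 0.75 ± 0.20, from 1.34 ± 0.400 to 2.91 ± 0.442 RPKM, and stood at -0.12 after the correction. Eed, the subunit that binds methylated lysine 27, read 4.81, 5.02 and 5.57 RPKM against 9.40, 6.11 and 13.0 RPKM. Its groups did not overlap and it fell by 0.72 on the log2 scale (SE 0.26, limma adjusted p = 0.0374, -1.13 after the correction, 0.10 on rescaling). The call held on a thin margin: it was lost without stem-labelled replicates 1, 2 and 3 (-0.69, -0.71 and -0.77, adjusted p = 0.101, 0.0929 and 0.0709) without other replicates 1 and 3 (-0.70 and -0.49, adjusted p = 0.0838 and 0.122) and with no filter on low values (adjusted p = 0.0912). Of the 50-base stretches of Eed, 10.5% occur in another gene. Suz12, the scaffold of PRC2, stood at 3.82, 3.31 and 6.39 RPKM against 5.33 to 6.86 RPKM and did not pass (-0.38 ± 0.24). Without stem-labelled replicate 3 it was called lower (-0.62, adjusted p = 0.0452).

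Ring1 and Rnf2 encode the alternative ubiquitin ligases of PRC1. Ring1 (ENSMUSG00000024325, chromosome 17, 34020792 to 34024680) read 13.3, 10.9 and 9.40 RPKM in the stem-labelled and 29.9, 30.5 and 19.2 RPKM in the other libraries. It had the largest fall of the 46 genes on the deposited scale, -1.15 ± 0.25 (limma adjusted p = 0.00350, -0.86 after the correction, -0.27 on rescaling, not called there). Rnf2 did not pass, at 3.20 ± 0.914 against 4.31 ± 0.509 RPKM (-0.36 ± 0.21). Bmi1, a partner of both ligases known for stem cell renewal, stood at 4.06, 4.59 and 6.49 RPKM against 6.97, 4.57 and 7.50 RPKM, which overlap (-0.28 ± 0.24). Of its 50-base stretches, 18.5% occur in another gene. Cbx2 and Cbx7, chromobox readers of methylated lysine 27, did not pass (0.57 ± 0.25 and 0.41 ± 0.18, limma adjusted p = 0.0774 and 0.0772), although all stem-labelled values lay above all others. Cbx2 was called higher without other replicate 2 (0.72, adjusted p = 0.0414) and after the correction (0.75, adjusted p = 0.0249).

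All 3 tested methyltransferases of lysine 4 rose and were called higher after the correction too. Among all tested genes 29.9% were called higher before the correction and 25.8% after it. Before it the share was 48.0% at 5 to 10 kb, where Kmt2b lies, and 63.3% at 10 kb or more. Kmt2d, an enzyme of enhancers, read 3.10, 2.91 and 2.78 RPKM in the stem-labelled and 0.384, 0.162 and 0.220 RPKM in the other libraries, with no overlap. It rose by 1.65 ± 0.17 (limma adjusted p = 0.000143, 1.29 after the correction), on 5291 reads against 175. Kmt2a (MLL1) rose by 1.69 ± 0.22, from 0.873 ± 0.200 to 5.13 ± 1.55 RPKM (corrected change 0.56). Kmt2b, its paralogue, rose by 0.95 ± 0.19, from 3.06 ± 0.496 to 6.82 ± 0.193 RPKM (corrected change 0.81). Kmt2c, the paralogue of Kmt2d, was too low to be tested, at 0.374 to 1.15 RPKM against 0.0910 to 0.166 RPKM, without overlap and on 1278 reads against 87. With no filter it did not pass (0.55, limma adjusted p = 0.0590).

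Ehmt1 (GLP) and Ehmt2 (G9a) work as a heterodimer on lysine 9 and went opposite ways on the deposited scale, with Ehmt2 at 0.018 on rescaling. Ehmt1 (ENSMUSG00000036893, chromosome 2, 24789928 to 24919614) read 7.28, 6.39 and 6.96 RPKM in the stem-labelled and 1.75, 2.14 and 1.81 RPKM in the other libraries. Ehmt2 (ENSMUSG00000013787, chromosome 17, 34898469 to 34914052) read 62.1, 66.0 and 50.5 RPKM against 121, 132 and 89.1 RPKM. Neither gene's groups overlapped. Ehmt1 rose by 1.44 ± 0.18 (limma adjusted p = 0.000265) and Ehmt2 changed by -0.91 ± 0.25 (adjusted p = 0.0121). After the correction both were still called, at 0.53 and -0.69. Setdb1, the lysine 9 methyltransferase that silences retroelements, rose by 1.03 ± 0.24 to 7.36 ± 1.77 RPKM. It stood at 0.23 after the correction, not called, and shares exon sequence with Cers2 on the opposite strand.

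Kdm6b (JMJD3), which removes methylation of lysine 27, read 7.60, 8.09 and 8.53 RPKM in the stem-labelled and 2.94, 2.72 and 2.66 RPKM in the other libraries. The spread within each group was small, and it rose by 1.27 ± 0.18 (limma adjusted p = 0.000441, 1.29 after the correction). Kdm1a (LSD1), which acts on lysine 4, stood at 16.0 ± 1.18 against 13.0 ± 2.54 RPKM and did not pass (0.30 ± 0.21, -0.34 after the correction). On rescaling it was called higher (1.18, limma adjusted p = 0.00132). Kdm5b, also of lysine 4, was too low to be tested, and its libraries overlapped, at 0.526 to 1.23 and 0.549 to 0.954 RPKM.

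Dnmt1 was the most abundant DNA methylation enzyme and rose. It stood at 83.6, 56.8 and 70.6 RPKM in the stem-labelled and 27.0, 42.5 and 24.3 RPKM in the other libraries, with no overlap (1.17 ± 0.27, limma adjusted p = 0.00573, 0.63 after the correction, called). Dnmt3a, a de novo methyltransferase, rose by 0.88 ± 0.16, from 0.218 ± 0.0626 to 1.24 ± 0.0974 RPKM, and stood at -0.20 after the correction. Tet3 rose by 1.13 ± 0.21, from 0.437 ± 0.129 to 2.18 ± 0.674 RPKM (0.19 after the correction, not called). Dnmt3b was too low to be tested at 0.371 to 0.433 against 0.126 to 0.214 RPKM, on 183 reads against 30, and with no filter was called higher (0.25, limma adjusted p = 0.0209). Tet2 lay between 0.0236 and 0.405 RPKM in all 6 libraries and its groups overlapped. Tet1 was near 0, on 43 reads over the stem-labelled libraries and 58 over the others, 52 of these in other replicate 1.

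**Figure D3:**
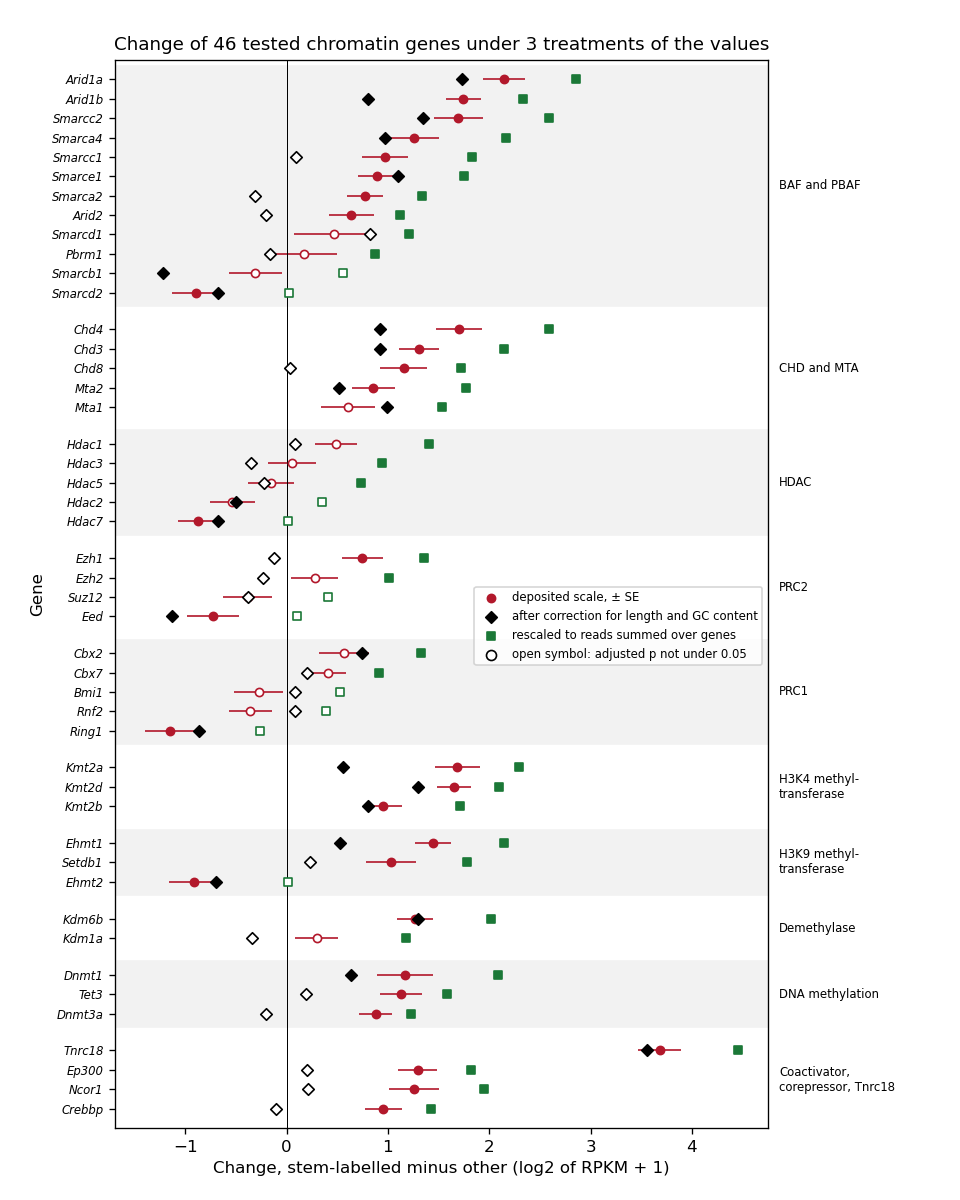
Change of each tested gene (log2 of RPKM + 1, stem-labelled minus other) on the deposited scale (red, bars ± SE), after the correction for length and GC content (black) and rescaled to reads summed over genes (green), with open symbols where the limma adjusted p was not under 0.05. Tnrc18, Arid1a, Smarcc2 and Kmt2d stay well above 0 under all 3, Ep300, Crebbp, Ncor1 and Chd8 lie near 0 after the correction, and on rescaling only Ring1 lies below 0.

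The reads may not belong wholly to the named gene in some cases. Exons of 18 of the 52 genes overlap a gene on the opposite strand, among them Smarcc1, Pbrm1, Kmt2a, Kdm6b, Hdac7, Ncor1, Eed, Ezh2 and Suz12, and the strand used in counting is not given in the sources used here. At least 10% of the 50-base stretches occur in another gene for 4 members, Hdac1, Bmi1, Dnmt3b and Eed.

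Paralogues among the members were then compared within each library, which removes most of the effect of library scaling. Some pairs, such as Ehmt1 and Ehmt2, work together, so a changed ratio need not mean that 1 replaces the other. The measure is log2(RPKM + 1) of one gene minus that of the other, with an exact two-sided permutation test over the 6 libraries, where 3 against 3 cannot give a p below 0.1. Of 14 pairs with both genes tested, 11 had no overlap between the groups (exact p = 0.1, adjusted over the pairs p = 0.127), so none can pass at 0.05. The share of all gene pairs without overlap was not computed, so the count is not shown to be particular to paralogues. Among single tested genes 35.7% had all stem-labelled libraries above the others and 27.8% below. After the correction 11 pairs were also without overlap, 8 of them without overlap and in the same direction in both.

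Ehmt1 relative to Ehmt2 moved most, from -5.29 ± 0.25 in the other clones to -2.94 ± 0.24 in the stem-labelled clones (means ± SD of log2 differences, n = 3). The difference was 2.36, 1.22 after the correction and 2.13 on rescaling. Ehmt2 remained the higher of the pair in every library. Smarcd1 relative to Smarcd2 differed by 1.37 (1.5 after the correction), 2 genes of similar length, 3153 and 3589 bases, and by 0.88 without other replicate 1. Hdac1 relative to Hdac2 differed by 1.02 (0.58 after the correction) and Hdac5 relative to Hdac7 by 0.72 (0.46 after the correction). Smarcc1 relative to Smarcc2 differed by -0.73 (-1.25 after the correction). For Smarca2 relative to Smarca4 the difference was -0.48 (-1.29 after the correction), but with a pseudocount of 0.1 it was -0.10 and the groups overlapped. Arid1a relative to Arid1b (0.21 without other replicate 2) and Ep300 relative to Crebbp differed by 0.41 and 0.34, and their groups also overlapped with that pseudocount (0.16 and 0.38). The difference for Ezh1 relative to Ezh2 was 0.47, 0.30 without other replicate 1, and 0.11 after the correction with overlap. For Kmt2a relative to Kmt2b, 16670 and 9596 bases long, it was 0.74, and -0.25 with overlap after the correction, and for Chd3 relative to Chd4 it was -0.40 and then 0.00. The pairs Ring1 and Rnf2, Mta1 and Mta2, and Cbx2 and Cbx7 overlapped between the groups on the deposited scale (-0.80, -0.25 and 0.16).

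**Figure D4:**
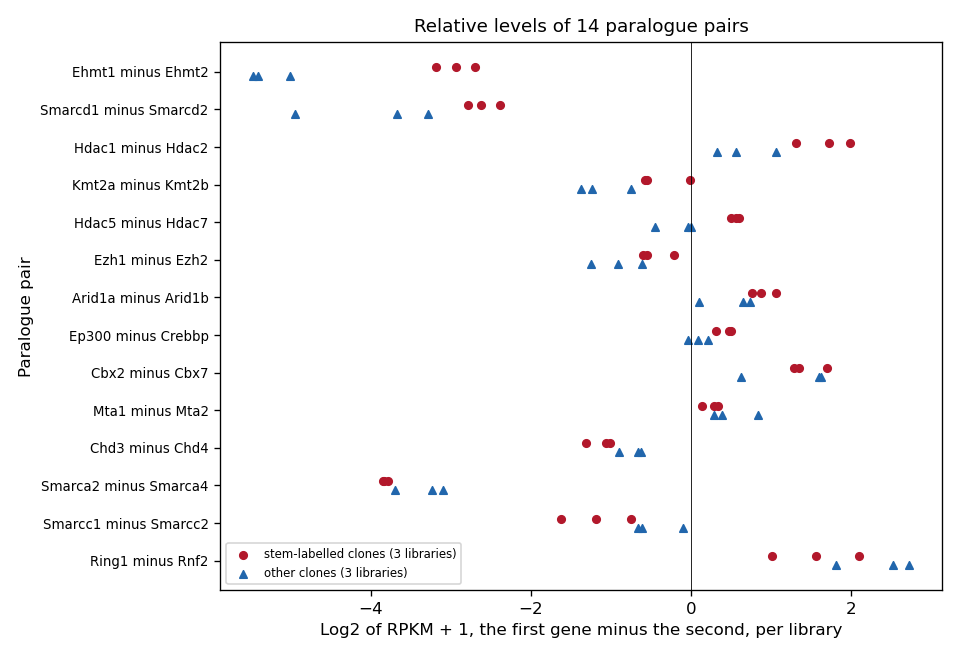
Log2 of RPKM + 1 of the first gene minus the second in each library for 14 paralogue pairs, red circles for the 3 stem-labelled and blue triangles for the 3 other libraries. For Ehmt1 minus Ehmt2 the stem-labelled libraries lie between -3.18 and -2.70 and the others between -5.47 and -5.00.

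A wider list of 135 genes of the same complexes and of other remodelers, chosen by role, was read in the same fit. Of its 114 tested genes 51 rose and 13 fell, the other 50 were not called, and the median change was 0.50. The called shares were 44.7% higher and 11.4% lower, against 29.9% and 25.4% of all tested genes. After the correction 29 were called higher and 18 lower (25.4% and 15.8%, against 25.8% and 22% of all), so the share called higher was then at the background. On rescaling 89 were called higher and 3 lower (78.1% and 2.63%, against 58.7% and 12.3%). Of 18 acetyltransferase, BET and corepressor genes 12 rose and 1 fell. Brd2, a reader of acetylated histones, rose from 10.1 ± 1.35 to 41.2 ± 3.00 RPKM (1.93 ± 0.20, 1.79 after the correction), while Sin3b, a scaffold of deacetylase complexes, changed by -1.48 ± 0.30 (-0.55 on rescaling, not called there). Of 20 histone methyltransferase genes 9 rose and 2 fell. Setd1b, which methylates lysine 4, rose from 0.389 ± 0.104 to 3.60 ± 0.236 RPKM (1.73 ± 0.17, 1.51 after the correction), and Prmt1, the main arginine methyltransferase, fell from 210 ± 37.6 to 67.6 ± 18.6 RPKM (-1.64 ± 0.28, -0.70 on rescaling).

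Of 19 further Polycomb genes 7 rose and 1 fell, where 29.9% and 25.4% of all tested genes were called higher and lower. Asxl1, a partner of the H2A deubiquitinase Bap1, rose by 1.69 ± 0.19 and the chromobox gene Cbx6 by 1.63 ± 0.20, reaching 7.52 ± 0.857 and 27.7 ± 2.14 RPKM (corrected changes 0.84 and 1.23). Phc2, a PRC1 subunit, changed by -0.998 ± 0.22 (-0.07 on rescaling). Of 12 demethylase genes 5 rose and 7 did not pass, with Kdm3b at 1.65 ± 0.18. Of 6 DNA methylation genes 5 rose and 1 did not pass. Uhrf1, which guides Dnmt1 to newly made DNA, rose by 1.31 ± 0.28, from 29.9 ± 10.1 to 74.1 ± 16.9 RPKM (corrected change 0.98). Uhrf2 rose by 0.95 ± 0.22 (corrected change 0.10, not called).

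The small classes that follow stand beside 29.9% of all tested genes called higher and 25.4% lower, and several are near the share called higher. Of 9 further deacetylases and sirtuins 2 rose and 3 fell. Sirt6 fell from 46.2 ± 5.62 to 10.7 ± 0.709 RPKM (-2.01 ± 0.20, -1.44 after the correction and -1.11 on rescaling, called in each). Of 11 ISWI, INO80 and SRCAP family genes 5 rose and 4 fell, with Ep400 at 1.76 ± 0.23 and Smarca5, the ISWI ATPase, at -1.57 ± 0.32 (-0.75 on rescaling, not called). Of 10 further BAF genes 3 rose and 1 fell. Bcl7c fell from 52.2 ± 15.1 to 8.04 ± 2.60 RPKM (-2.56 ± 0.29, -3.41 after the correction and -1.68 on rescaling, called in each). Of 9 further CHD and NuRD genes 3 rose and 1 fell: Mbd2 rose by 1.001 ± 0.22, and Mbd3, which takes its place in other NuRD complexes, changed by -1.36 ± 0.27 (-0.24 after the correction and -0.42 on rescaling, not called in either). Hdac4 (0.96), Hdac8 (0.54), Baz2a (1.28), Bcl7a (0.86) and Chd2 (0.96) rose on the deposited scale too. None of them was called after the correction, at -0.06, 0.39, 0.36, -0.10 and -0.08. Ep400, Brd9 and Mbd2 were called higher there (0.75, 0.87 and 1.26).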

How the data were processed

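Each library has 1 deposited file of RPKM values from the authors. No header names the unit: each value times the listed gene length is a whole multiple of 1 step per library (100% of values, tolerance 0.01), which also returns the reads. The submitters' processing notes list TopHat2 2.0.9, Bowtie2 2.0.6 and, as build, mm9, with no roles; the counting program is not given in the sources used here. Of the gene IDs 99.6% were in GENCODE M21, and 46 of the 52 members had the same start and end there, so positions are on GRCm38.

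Groups come from the tissue labels. limma 3.58.1 in R 4.3.3, with a variance trend, was fitted to log2(RPKM + 1) of the 10097 genes that reached 1 RPKM in 3 or more of the 6 libraries, two-sided, with Benjamini-Hochberg adjustment over all of them. The correction subtracts from each library natural splines (5 degrees of freedom each) of log2 length and GC content, the latter known for 99.9% of tested genes. All 52 members are described; of each wider list up to 2 genes per direction with the smallest p could be named, and not all are. Members, lists and tests were chosen with earlier results of these data known. Alternatives are in the closing section.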

Additional observations from a re-analysis of the deposited data

How the results depend on the processing

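Depth limits the low genes: over the other clones Dnmt3b rests on 30 reads, Tet1 on 58, Tet2 on 62, Chd7 on 72, Kmt2c on 87 and Dnmt3a on 127. Group, library scaling and length trend cannot be told apart in this design. Where a call was lost or a sign turned, the cause was not tested, except that higher thresholds keep fewer genes by construction.

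Over all genes 5577 were called, 3014 higher and 2563 lower. A filter of mean RPKM at least 5 gave 3477 (1405 higher), a change of at least 2-fold 3438 (1487 higher), and rescaling to summed reads 5926 higher and 1245 lower. Leaving out each library gave 4747 to 5555 (2539 to 3027 higher, 2184 to 2528 lower). Of the members 31 were called. The mean filter gave 17 (12 higher), a 2-fold change 18 (17 higher, 1 lower), the correction 17 higher, the replicate block with the correction 19 (13 higher), and rescaling 0 lower. Leaving out each library gave 29 to 33 (25 to 27 higher, 4 to 6 lower). Of the wider list 64 were called. The mean filter gave 30 (20 higher), a 2-fold change 40 (30 higher), the block with the correction 40 (22 higher), the correction 29 higher and rescaling 89 higher and 3 lower. Leaving out each library gave 57 to 62 (45 to 49 higher, 11 to 13 lower). Of the 14 pairs 11 were without overlap, 11 to 12 with a library left out, 8 with a pseudocount of 0.1 and 10 on rescaling.

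Replicate numbers are shared between the groups, but same-numbered libraries did not deviate together (correlations -0.125, 0.0255 and -0.0848). A fit with the replicate number as a block called 5212 genes (2735 higher, 2477 lower), 30 members (25 higher, 5 lower) and 59 genes of the wider list (46 higher, 13 lower). Of the members it lost only Arid2 (0.64, adjusted p = 0.0531).

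Signs turned as follows. With the correction, and the same with the block: Arid2 -0.20, Pbrm1 -0.16, Smarca2 -0.32, Dnmt3a -0.20, Hdac3 -0.35, Bmi1 0.079, Rnf2 0.087, Ezh1 -0.12, Ezh2 -0.23, Crebbp -0.10 and Kdm1a -0.34. On rescaling: Smarcb1 0.56, Smarcd2 0.026, Ehmt2 0.018, Hdac2 0.35, Hdac5 0.74 (called), Hdac7 0.014, Bmi1 0.53, Rnf2 0.39, Eed 0.10 and Suz12 0.41. Hdac3 stood at -0.069 with upper-quartile scaling and -0.084 with limma-voom. With a library left out, Pbrm1 ran from -0.25 to 0.44, Smarcd1 from -0.045 to 0.84, Hdac3 from -0.078 to 0.24 and Cbx2 minus Cbx7 from -0.17 to 0.33. Cbx2 minus Cbx7 stood at -0.019 with a pseudocount of 0.1. With the correction Chd3 minus Chd4 stood at 0.0031, Mta1 minus Mta2 at 0.47 and Kmt2a minus Kmt2b at -0.25. No sign of a member turned with robust variances, without limma's variance trend, with no filter or with 0.1 as pseudocount. Rescaling of the pairs and the split by length were chosen after seeing the data.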

Other observations

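Within the stem-labelled group, replicate 3 stood highest for 22 of the 46 tested chromatin genes and lowest for 15, against 32.9% and 44.9% of all tested genes. The 22 had a median GC content of 48.9%, and the other 24 had 56.3%. The difference between replicate 3 and the mean of replicates 1 and 2 followed GC content with Spearman's rho = -0.63 across the 46 genes and -0.52 across all tested genes, a description over genes that share these 3 libraries. Kmt2a (6.91 against 4.35 and 4.12 RPKM), Chd8 (4.84 against 2.74 and 2.27 RPKM), Ncor1 (8.02 against 5.75 and 4.27 RPKM) and Kmt2c (1.15 against 0.514 and 0.374 RPKM) were among the genes highest there. Kmt2c is not among the 46 tested genes. These 4 were chosen after their values were seen.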
